A study of Mus musculus with 9 samples.

Results

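The 43 genes described here encode the mouse antioxidant machinery built on glutathione, thioredoxin and the transcription factor NRF2. They were taken by symbol from a fixed list of 43 names, and all 43 were found among the 49315 genes of the count table. Their transcripts were measured by bulk RNA-seq in 9 libraries from co-cultures of SB28 cells, a GFP-expressing mouse glioblastoma line, with primary astrocytes of the subventricular zone of newborn C57BL6 mice. The astrocytes carried mito::mKate2, a CAG-driven transgene that puts the red protein mKate2 into mitochondria, so that a tumor cell that had taken up an astrocyte mitochondrion became mKate2+. After 2 days in medium with EGF and FGF and without any drug, 3 populations were sorted, each from 3 distinct co-cultures: SB28 cells without astrocyte mitochondria (mKate2-), SB28 cells with them (mKate2+), and the astrocytes. The tumor populations therefore come from 1 cell line and differ in mKate2 signal, not in genotype, and every population had been in contact with the others. The astrocyte libraries held 24454561 to 35135662 counts in all, the mKate2- libraries 27187348 to 35891589 and the mKate2+ libraries 34175016 to 39287841.

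Glutathione is a small thiol peptide that cells make from glutamate, cysteine and glycine, and that peroxidases and transferases spend to reduce peroxides and to tag reactive compounds. Thioredoxin does related work through a protein thiol, and peroxiredoxins draw on it to remove hydrogen peroxide. NRF2, held down by KEAP1 in resting cells, enters the nucleus under oxidative stress, pairs with small MAF proteins and binds antioxidant response elements in the genes of both systems. In brain, astrocytes are known for strong NRF2 activity and for supplying glutathione precursors to neurons, while gliomas are known to import cystine for their own glutathione.

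The element that NRF2 binds has the core TGACNNNGC, where N is any base. Promoters of 300 bases, from 250 before to 50 after the gene's start in RefSeq (GRCm38.p6), were at hand for 37 of the 43 genes, and the core was looked for on both strands. It stood in the promoters of 9 of the 37 genes (24.3%), against 14% of the 27025 genes with a promoter in the same set. The 9 windows are printed because they place the element beside genes whose levels went in different directions. Each is written 5′ to 3′ on the strand that carries the core, which is in capitals, and the position of its centre is counted from the gene's start. Where a gene has several starts, each was searched.
Nfe2l2, chr2:75704885-75704913, minus strand, centre at -236: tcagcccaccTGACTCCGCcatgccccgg
Srxn1, chr2:152105542-152105570, minus strand, centre at 33: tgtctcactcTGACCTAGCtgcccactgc
Gclm, chr3:122245413-122245441, minus strand, centre at -130: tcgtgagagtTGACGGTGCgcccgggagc
Prdx1, chr4:116685456-116685484, minus strand, centre at -129: ctacgggggaTGACTCAGCgctttccctg
Txnrd1, chr10:82859104-82859132, minus strand, centre at -88: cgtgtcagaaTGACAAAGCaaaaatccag
Sod1, chr16:90220696-90220724, minus strand, centre at -52: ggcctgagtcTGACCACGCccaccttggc
Mgst1, chr6:138140461-138140489, minus strand, centre at -52: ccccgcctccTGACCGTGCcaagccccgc
Gstm5, chr3:107895802-107895830, plus strand, centre at -38: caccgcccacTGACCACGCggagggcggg
Fam213a, chr14:41008273-41008301, plus strand, centre at -21: gtaggcagggTGACCAGGCatagggaggg
All of them lie before the RefSeq start they are counted from except that of Srxn1. Those of Txnrd1, Mgst1 and Fam213a lie within the span of the gene in GENCODE M21, before an internal start. The core can hold the AP-1 site TGACTCA, as it does in Prdx1. A match of these letters is a description of the sequence, not evidence of binding. The promoter of Nqo1 held no match, which says only that the letters were not in its 300 bases.

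Levels are given in CPM, the count of a gene brought to a common library size with TMM factors over the 9 libraries. The sorted astrocytes held astrocyte transcripts: Slc1a3, the glutamate transporter GLAST, stood at 174, 171 and 227 CPM, and Apoe at 266, 252 and 260 CPM. Gfap stood at 8.90, 3.31 and 18.7 CPM, Aqp4 at 5.69, 6.60 and 57.6 CPM, and Gjb6, a connexin of mature astrocytes, at 0 in all 9 libraries. The same libraries held the glial lineage factors Olig1 (545, 233 and 293 CPM) and Olig2 (270, 154 and 150 CPM), while Sox10 reached at most 0.0592 CPM. Of 12 microglia markers, Tmem119 was the most abundant in every population (mean 30.9 CPM in astrocytes, 51.0 in mKate2- and 55.9 in mKate2+ cells), P2ry12 stood at 1.07, 2.46 and 0.466 CPM in astrocytes, and the other 10, among them Cx3cr1, C1qa, Trem2 and Itgam, were below 1 CPM in every library. Col1a2, a collagen of fibroblasts, was present in all populations, with means of 971, 540 and 511 CPM.

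Some libraries stood apart from the rest of their group. In astrocyte library 3 the 15 astrocyte markers summed to 2127 CPM, against 1321 and 1256 in the others, and the vascular receptor gene Flt1 stood at 185 CPM, against 5.69 and 12.04, and the endothelial cadherin gene Cdh5 at 5.43 CPM, against 0.660 and 0.355, while Pecam1 and Cldn5 reached at most 1.03 CPM in any library. In mKate2+ library 2, levels fell with gene length relative to the other tumor libraries, with a slope of -0.17 log2 units per doubling of exonic length where the 5 others lay between 0.01 and 0.06. That library also had the lowest share of mitochondrially encoded mRNA, 0.552% of counts against 0.839 to 1.51% in the other tumor libraries.

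As a share of all counts, the 43 genes took 0.626, 0.606 and 0.505% in the astrocyte libraries, 0.570, 0.514 and 0.516% in mKate2- and 0.567, 0.677 and 0.529% in mKate2+ libraries. The ranges of the 3 populations overlapped. To set genes against each other, levels were also taken per kilobase of exon. The length was the union of all annotated exons of a gene, not that of the transcript expressed. Ranks between genes are therefore approximate, and a gene with long isoforms that are little used stands too low. On this scale the highest level in astrocytes was that of Gstm1, a mu-class glutathione S-transferase, with a mean of 291 ± 56.5 CPM per kb (SD, n = 3). The next were Hmox1 (190 ± 39.1), Gpx4 (158 ± 20.2), Gpx1 (149 ± 34.1) and Prdx1 (139 ± 23.8 CPM per kb), whose spreads overlapped. In mKate2- cells Txn1 led with 323 ± 55.9 CPM per kb, before Gsto1 (211 ± 7.29), Gpx1 (210 ± 9.44), Nqo1 (162 ± 48.6) and Prdx1 (140 ± 9.88). In mKate2+ cells the same 5 genes led, with Txn1 at 503 ± 280 CPM per kb, Gpx1 at 256, Gsto1 at 243, Nqo1 at 181 and Prdx1 at 161. Without library 2, Txn1 stood at 342 CPM per kb, and Gsto1 (225) came before Gpx1 (219). Of the 5 leading genes of astrocytes, Gstm1, Hmox1 and Gpx4 were not among the first 5 of either tumor population.

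**Figure D1:**
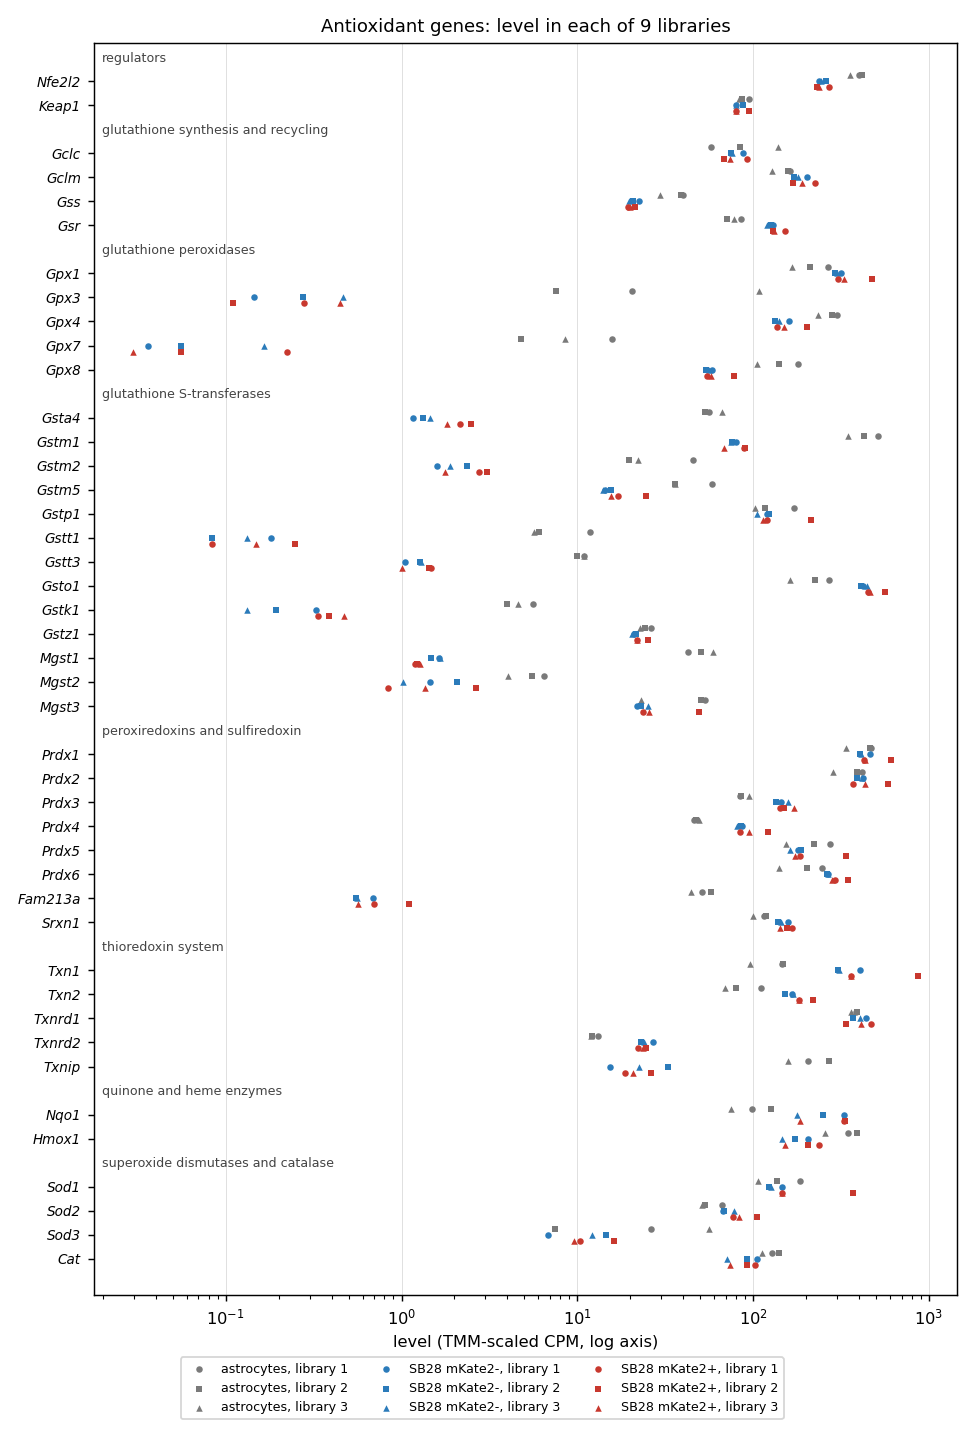
Level of each of the 43 genes in each of the 9 libraries, in TMM-scaled CPM on a log axis, with astrocytes in grey, mKate2- cells in blue and mKate2+ cells in red, and marker shapes for library numbers. Glutathione S-transferases such as Gsta4 and Mgst1 lie far to the left in tumor cells, at 1.16 to 2.49 CPM, and Txn1 and Nqo1 to the right, while the blue and red points of most genes lie together.

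The first question was how the antioxidant genes of the recipient tumor cells differed from those of the donor astrocytes. In mKate2- cells against astrocytes, 2 of the 43 genes were higher and 14 lower by more than 2-fold with an adjusted p below 0.05 (edgeR, quasi-likelihood test). These are 4.65 and 32.6% of the 43 genes, against 11.5% higher and 22.4% lower among the 13356 genes tested. Without astrocyte library 1, 5 were higher, Gsto1, Txn2 and Txnrd2 being added. In mKate2+ cells against the same astrocyte libraries, 5 were higher (11.6%) and 14 lower (32.6%), against 12.2% and 22.8% of 13342 genes. The median log2 fold change of the 43 genes was -0.29 in mKate2- and -0.27 in mKate2+ cells, and that of all genes tested -0.04 and -0.02. Without astrocyte library 1 the former median was -0.498, and without astrocyte library 3 the latter was -0.150. Gpx3, Gpx7, Gstt1, Gstk1 and Fam213a passed the filter on low counts only through the astrocytes, so that they had to come out lower. Of the other 38 genes 9 were lower in each comparison (23.7%), against 13.2% and 13.5% of the genes that likewise passed the filter in tumor cells. The median log2 fold change of these 38 was -0.19 in mKate2- and 0.02 in mKate2+ cells, against 0.10 and 0.13 for all such genes, so that the sign of the second median turned on the 5 genes. The comparisons share the 3 astrocyte libraries and are not independent of each other. In bulk RNA, fewer cells of a type and less RNA per cell cannot be told apart.

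With an adjusted p below 0.05 and no demand on size, mKate2- cells had 10 genes above and 20 below the astrocytes, against 29.3% and 33.8% of all genes tested, and mKate2+ cells had 12 above and 19 below, against 28% and 32.1%. Of the 14 genes lower past 2-fold in both, 9 were glutathione S-transferases and 3 peroxidases of the secretory route, beside Fam213a and Txnip. Among these 14, Gpx3, Gpx7, Gstt1, Gstk1 and Fam213a had passed the filter only through the astrocytes and had to be lower. The 9 that also passed it in tumor cells were 7 transferases, Gpx8 and Txnip. Those higher past 2-fold were Txn1 and Nqo1 in both and Txn2, Gsto1 and Prdx4 in mKate2+ cells.

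**Figure D2:**
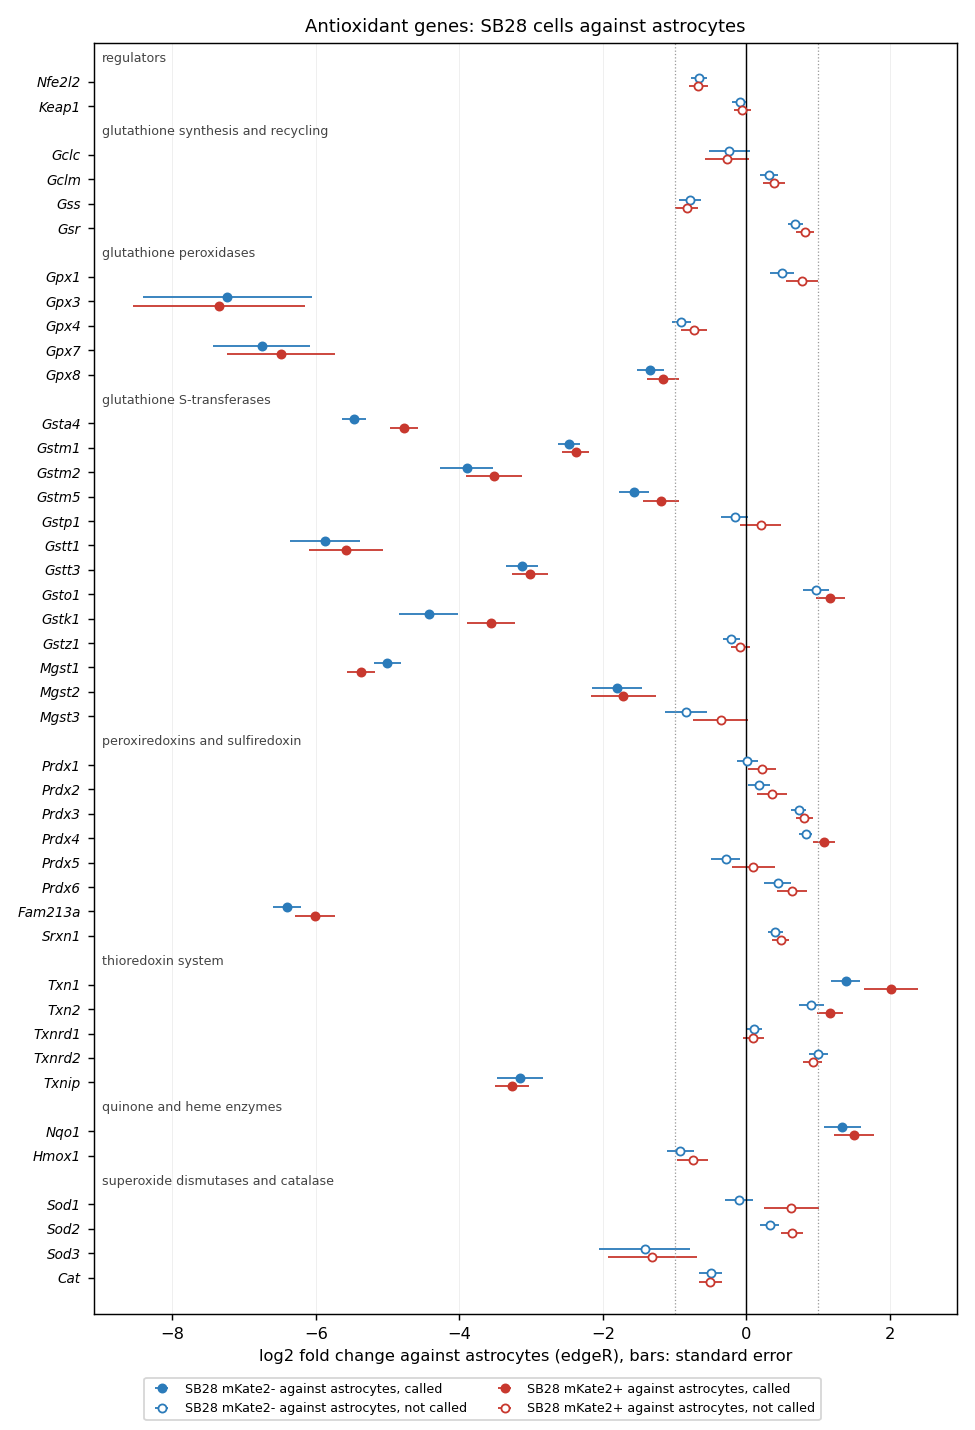
Log2 fold change of each of the 43 genes in mKate2- cells (blue) and mKate2+ cells (red) against the same 3 astrocyte libraries, with bars for the standard error and filled points for genes past an adjusted p of 0.05 and a log2 fold change of 1 in size, the dotted lines. Of 13 glutathione S-transferases 9 are filled to the left in both colours, among them Gstt1 and Gstk1, which passed the filter only through the astrocytes. Txn1 and Nqo1 are filled to the right in both.

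Nfe2l2, which encodes NRF2 (chr2:75675513-75704641, minus strand), stood at 403, 415 and 357 CPM in astrocytes, at 238, 260 and 243 CPM in mKate2- and at 271, 230 and 238 CPM in mKate2+ cells. Every tumor library lay below every astrocyte library. Its log2 fold change was -0.66 ± 0.11 (SE) in mKate2- (adjusted p = 0.00105) and -0.67 ± 0.13 in mKate2+ cells (adjusted p = 0.00293), so that tumor cells held 63.2 and 62.9% of the astrocyte mean. Keap1, the adaptor that hands NRF2 to degradation, stood at 95.2, 86.5 and 82.7 CPM in astrocytes, at 80.1, 87.1 and 79.8 CPM in mKate2- and at 80.0, 94.2 and 80.2 CPM in mKate2+ cells. The groups overlapped, and its log2 fold changes of -0.10 ± 0.10 and -0.06 ± 0.12 did not pass the test (adjusted p = 0.429 and 0.696).

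Of the genes that make glutathione and return it to its reduced form, Gsr was higher and Gss lower in tumor cells. Gsr, glutathione reductase, stood at 85.4, 71.4 and 78.3 CPM in astrocytes, at 131, 126 and 120 CPM in mKate2- and at 153, 129 and 132 CPM in mKate2+ cells. It was higher by 0.68 ± 0.11 on the log2 scale (adjusted p = 0.000853) and 0.82 ± 0.13 (adjusted p = 0.00107), and the groups did not overlap. Gss, glutathione synthetase, which adds the last amino acid, stood at 40.2, 38.7 and 29.4 CPM in astrocytes and at 19.5 to 22.4 CPM in the 6 tumor libraries. The log2 fold changes of Gss were -0.78 ± 0.15 (adjusted p = 0.00279) and -0.83 ± 0.16 (adjusted p = 0.00283); it overlaps Acss2 on the opposite strand, and reads of the pair cannot be separated unless the counting used strand, which the sources used here do not state. The subunits of the rate-limiting ligase did not pass. Gclm, the modifier subunit, stood at 162, 158 and 128 CPM in astrocytes, at 202, 172 and 180 CPM in mKate2- and at 226, 169 and 190 CPM in mKate2+ cells (adjusted p = 0.0624 and 0.0641). The former passed without astrocyte library 1 (0.36, edgeR, adjusted p = 0.0432) and the latter without mKate2+ library 2 (0.49, edgeR, adjusted p = 0.0374). Gclc, the catalytic subunit, stood at 58.0, 84.1 and 139 CPM in astrocytes, with the tumor libraries between 68.3 and 92.0 CPM, inside the astrocyte range. Its log2 fold changes of -0.24 and -0.27 became 0.16 and 0.12 without astrocyte library 3.

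Most of the 5 glutathione peroxidases reduce peroxides with a selenocysteine. Gpx1 was higher and the other 4 were lower in tumor cells with an adjusted p below 0.05. Among all genes tested, 29.3% were higher and 33.8% lower by this measure in mKate2- cells, and 28% and 32.1% in mKate2+ cells. Of the 4, Gpx3 and Gpx7 had passed the filter only through the astrocytes. Gpx1, the abundant cytosolic enzyme, stood at 265, 212 and 167 CPM in astrocytes, at 318, 291 and 299 CPM in mKate2- and at 303, 475 and 328 CPM in mKate2+ cells. The tumor libraries lay above all astrocyte libraries, with log2 fold changes of 0.50 ± 0.17 (adjusted p = 0.0309) and 0.78 ± 0.22 (adjusted p = 0.0185). The former did not pass in 4 of the 6 fits that left out a library (adjusted p up to 0.0956), nor the latter without mKate2+ library 2 (0.56, adjusted p = 0.0540) or astrocyte library 2 (adjusted p = 0.0634). Gpx4, which reduces lipid peroxides within membranes and guards cells from ferroptosis, stood at 302, 280 and 234 CPM in astrocytes, at 160, 133 and 141 CPM in mKate2- and at 137, 204 and 150 CPM in mKate2+ cells. It was lower in both, with log2 fold changes of -0.91 ± 0.13 (adjusted p = 0.000648) and -0.73 ± 0.18 (adjusted p = 0.00868).

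Gpx8, Gpx7 and Gpx3, the peroxidases of the secretory route, were each called lower past 2-fold, but Gpx7 and Gpx3 had passed the filter only through the astrocytes and had to be. Gpx8, a membrane protein of the endoplasmic reticulum, stood at 181, 141 and 106 CPM in astrocytes, at 58.1, 53.8 and 56.4 CPM in mKate2- and at 55.0, 78.0 and 57.4 CPM in mKate2+ cells. Its log2 fold changes were -1.34 ± 0.19 and -1.17 ± 0.22 (adjusted p = 0.000509 and 0.00280), the latter being -0.98 without astrocyte library 1. Gpx7, its soluble neighbour in the reticulum, stood at 15.7, 4.76 and 8.56 CPM in astrocytes and at 0.0296 to 0.223 CPM in tumor libraries, where each value rests on 1 to 8 counts. Gpx3, the secreted plasma form, stood at 20.4, 7.54 and 108 CPM in astrocytes and at 0.111 to 0.462 CPM in tumor libraries, on 4 to 15 counts each. The astrocyte libraries spread over more than 10-fold for Gpx3, and its log2 fold changes of -7.24 ± 1.18 and -7.35 ± 1.20 became -5.52 and -5.65 without astrocyte library 3, the library with the highest astrocyte markers and Flt1.

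Glutathione S-transferases, which join glutathione to reactive or foreign molecules, were lower in tumor cells for most of the genes in the set. Of 13 genes 9 were lower past 2-fold in mKate2- cells and the same 9 in mKate2+ cells, against 22.4% and 22.8% of all genes tested. The 9 include Gstt1 and Gstk1, which passed the filter only through the astrocytes. Of the 11 that also passed it in tumor cells, 7 were lower in each comparison (63.6%), against 13.2% and 13.5% of all genes that did so, and their median log2 fold changes were -1.80 and -1.72. Gsta4, an alpha-class enzyme known for detoxifying 4-hydroxynonenal from oxidized lipids, stood at 56.4, 53.3 and 66.1 CPM in astrocytes, at 1.16, 1.33 and 1.45 CPM in mKate2- and at 2.14, 2.49 and 1.81 CPM in mKate2+ cells. Tumor cells thus held 2.24 and 3.66% of the astrocyte mean, with log2 fold changes of -5.47 ± 0.17 (adjusted p = 3.11e-06) and -4.77 ± 0.19 (adjusted p = 5.62e-06). Mgst1, a microsomal transferase and peroxidase, stood at 42.6, 50.4 and 59.5 CPM in astrocytes, at 1.63, 1.47 and 1.65 CPM in mKate2- and at 1.20, 1.22 and 1.27 CPM in mKate2+ cells. Its log2 fold changes were -5.00 ± 0.19 (adjusted p = 4.02e-06) and -5.37 ± 0.20 (adjusted p = 5.04e-06). Gstt1, a theta-class enzyme, stood at 11.9, 6.09 and 5.65 CPM in astrocytes and at 0.0830 to 0.249 CPM in the tumor libraries, on 3 to 9 counts each.

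The mu class was lower as well. Gstm1, named here after its values were seen because it led the astrocytes per kilobase, stood at 513, 427 and 346 CPM in astrocytes, at 79.6, 76.3 and 75.0 CPM in mKate2- and at 88.6, 89.9 and 68.8 CPM in mKate2+ cells. Its log2 fold changes were -2.48 ± 0.16 (adjusted p = 1.56e-05) and -2.38 ± 0.19 (adjusted p = 5.02e-05). Tumor cells held 17.9 and 19.2% of the astrocyte mean, a larger share than those of Gsta4 and Mgst1. Of the remaining falls, those of Gstm2, Gstm5, Gstt3 and Mgst2 ranged from -3.90 to -1.19 on the log2 scale. That of Gstm5 in mKate2+ cells was -0.94 without astrocyte library 1, under the 2-fold line. Gstk1, at -4.43 and -3.56, had passed the filter only through the astrocytes and had to come out lower. Members of the mu and theta classes resemble each other in sequence, so that reads may be shared or lost between Gstm1, Gstm2 and Gstm5 and between Gstt1 and Gstt3, and their separate values are uncertain to that extent.

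Gsto1, an omega-class enzyme that reduces disulfides and dehydroascorbate, went the other way. It stood at 271, 224 and 162 CPM in astrocytes, at 425, 414 and 443 CPM in mKate2- and at 448, 566 and 462 CPM in mKate2+ cells, with no overlap. Its log2 fold change was 0.97 ± 0.18 in mKate2- (adjusted p = 0.00225), just under the 2-fold line, and 1.17 ± 0.20 in mKate2+ cells (adjusted p = 0.00181), or 0.98 without astrocyte library 3. Gstp1 and Gstz1 passed the test in neither comparison, and Mgst3 passed in mKate2- cells, with a log2 fold change of -0.85 ± 0.29 (adjusted p = 0.0351), and not in mKate2+ cells. The pass of Mgst3 was lost when any library but astrocyte library 3 was left out (adjusted p = 0.0738 to 0.107), it was -1.14 and called lower without that library, and its groups overlapped.

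Among peroxiredoxins, Prdx3 and Prdx4 were higher in both tumor populations and Prdx1, Prdx2 and Prdx5 passed the test in neither. Prdx3, a mitochondrial form, stood at 84.6, 85.8 and 94.2 CPM in astrocytes, at 144, 134 and 159 CPM in mKate2- and at 143, 151 and 170 CPM in mKate2+ cells. Prdx3 was higher by log2 fold changes of 0.73 ± 0.11 (adjusted p = 0.000670) and 0.81 ± 0.12 (adjusted p = 0.000893). Prdx4, which works in the endoplasmic reticulum, stood at 46.2, 47.4 and 49.1 CPM in astrocytes, at 86.0, 85.7 and 80.5 CPM in mKate2- and at 84.1, 122 and 95.3 CPM in mKate2+ cells. Prdx4 had a log2 fold change of 0.82 ± 0.09 in mKate2- (adjusted p = 0.000186) and 1.08 ± 0.15 in mKate2+ cells (adjusted p = 0.000739), or 0.92 without mKate2+ library 2. All tumor libraries lay above all astrocyte libraries for both genes.

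Prdx1, the peroxiredoxin with the highest level per kilobase, stood at 468, 461 and 339 CPM in astrocytes, at 460, 406 and 409 CPM in mKate2- and at 428, 612 and 432 CPM in mKate2+ cells, and did not pass the test (adjusted p = 0.958 and 0.365). Prdx5, which works in mitochondria and peroxisomes, had log2 fold changes of -0.29 and 0.09 (adjusted p = 0.233 and 0.801), and the former passed without astrocyte library 3 (adjusted p = 0.00901), while the latter was -0.27 without mKate2+ library 2. Prdx6 passed in mKate2+ cells, by 0.63 ± 0.21 (adjusted p = 0.0306), and not in mKate2- cells, and the pass was lost in 4 of the 6 fits that left out a library (adjusted p of 0.0551 to 0.0909). Without astrocyte library 1, Prdx6 passed in mKate2- cells as well (0.62, edgeR, adjusted p = 0.0136). Srxn1, sulfiredoxin, which repairs overoxidized peroxiredoxins and is a textbook NRF2 target, stood at 115, 118 and 100.3 CPM in astrocytes, at 158, 139 and 143 CPM in mKate2- and at 167, 155 and 142 CPM in mKate2+ cells. It was higher in both by 0.40 ± 0.11 (adjusted p = 0.0127) and 0.48 ± 0.12 (adjusted p = 0.0114). The former did not pass without mKate2- library 1 (edgeR, adjusted p = 0.0582), nor the latter without mKate2+ library 1 (edgeR, adjusted p = 0.0529). Fam213a, a peroxiredoxin-like protein now named Prxl2a, stood at 51.2, 57.3 and 44.6 CPM in astrocytes and at 0.554 to 1.11 CPM in tumor libraries, 1.18 and 1.55% of the astrocyte mean. These correspond to log2 fold changes of -6.40 ± 0.19 and -6.01 ± 0.28, given as a description because Fam213a passed the filter only through the astrocytes.

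In the thioredoxin system, Txn1 was higher and its inhibitor Txnip lower in tumor cells. Txn1, cytosolic thioredoxin, stood at 146, 149 and 96.2 CPM in astrocytes, at 408, 305 and 307 CPM in mKate2- and at 359, 869 and 359 CPM in mKate2+ cells. Txn1 had a log2 fold change of 1.38 ± 0.20 in mKate2- (adjusted p = 0.000642) and 2.02 ± 0.38 in mKate2+ cells (adjusted p = 0.00270). Library 2 alone set the size of the second value, which was 1.47 without it. Txnip, which binds reduced thioredoxin and blocks it and which also restrains glucose uptake, stood at 204, 271 and 158 CPM in astrocytes, at 15.3, 33.0 and 22.4 CPM in mKate2- and at 18.7, 26.2 and 20.7 CPM in mKate2+ cells. Tumor cells held 11.2 and 10.4% of the astrocyte mean, with log2 fold changes of -3.16 ± 0.32 (adjusted p = 0.000110) and -3.27 ± 0.24 (adjusted p = 3.62e-05). Txnip overlaps a transcript on the opposite strand, Gm15441, so that part of its reads may belong to that gene.

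The mitochondrial branch of the system was higher in tumor cells. Txn2, mitochondrial thioredoxin, stood at 111, 80.1 and 69.4 CPM in astrocytes, at 166, 152 and 169 CPM in mKate2- and at 182, 220 and 182 CPM in mKate2+ cells. Both log2 fold changes passed, 0.90 ± 0.17 (adjusted p = 0.00260) and 1.17 ± 0.19 (adjusted p = 0.00129), and without mKate2+ library 2 the latter was 1.08. Txnrd2, the mitochondrial reductase, stood at 13.03, 12.1 and 11.96 CPM in astrocytes and at 22.3 to 27.0 CPM in tumor libraries, with log2 fold changes of 1.00 ± 0.13 (0.999, under the line) and 0.92 ± 0.14 (adjusted p = 0.000397 and 0.000885). Txnrd1, the cytosolic reductase and an NRF2 target, stood at 387, 390 and 360 CPM in astrocytes, and its tumor libraries lay on both sides of these, from 337 to 468 CPM (adjusted p = 0.444 and 0.606).

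Nqo1 and Hmox1, which are both textbook NRF2 targets, went in opposite directions. Nqo1, which reduces quinones, stood at 98.7, 126 and 74.8 CPM in astrocytes, at 329, 248 and 178 CPM in mKate2- and at 328, 333 and 184 CPM in mKate2+ cells. It was higher by 1.34 ± 0.26 (adjusted p = 0.00277) and 1.495 ± 0.28 (adjusted p = 0.00253), without overlap. Hmox1, heme oxygenase, stood at 346, 392 and 258 CPM in astrocytes, at 205, 174 and 147 CPM in mKate2- and at 237, 204 and 151 CPM in mKate2+ cells. It was lower, with log2 fold changes of -0.92 ± 0.19 (adjusted p = 0.00333) and -0.75 ± 0.22 (adjusted p = 0.0181), also without overlap. The former was -1.07 without astrocyte library 3. The latter did not pass without astrocyte library 2 (-0.63, edgeR, adjusted p = 0.061) or mKate2+ library 3 (-0.59, edgeR, adjusted p = 0.062).

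None of the superoxide dismutases, which turn superoxide into hydrogen peroxide, and not catalase, which removes hydrogen peroxide in peroxisomes, was called past 2-fold. Cat stood at 129, 140 and 112 CPM in astrocytes, at 105, 92.9 and 71.3 CPM in mKate2- and at 103, 91.9 and 74.0 CPM in mKate2+ cells, and was lower with a log2 fold change of -0.50 ± 0.16 in both (adjusted p = 0.0262 and 0.0248). Each did not pass in 3 of the 6 fits that left out a library (adjusted p of 0.0523 to 0.0920). Sod2, the mitochondrial dismutase, stood at 66.1, 53.4 and 50.9 CPM in astrocytes, at 67.3, 68.0 and 77.4 CPM in mKate2- and at 77.3, 105 and 83.1 CPM in mKate2+ cells. It passed in mKate2+ cells, by 0.64 ± 0.16 (adjusted p = 0.009996) or 0.504 without library 2, and not in mKate2- cells, by 0.32 ± 0.13 (adjusted p = 0.0608). Without astrocyte library 1, Sod2 passed in mKate2- cells as well (0.43, edgeR, adjusted p = 0.00637). Sod1, the cytosolic dismutase, stood at 184, 137 and 107 CPM in astrocytes, at 146, 124 and 127 CPM in mKate2- and at 146, 369 and 147 CPM in mKate2+ cells, and did not pass, with 0.63 in mKate2+ cells against astrocytes and 0.04 without library 2. Sod3, the extracellular form, stood at 26.3, 7.48 and 55.8 CPM in astrocytes and at 6.81 to 16.3 CPM in tumor libraries, and did not pass, with log2 fold changes of -1.42 and -1.31 (adjusted p = 0.0834 and 0.102). Its value turned on the astrocyte libraries: without library 2 it was -1.89 and -1.79 and was called lower, and without library 3 it was -0.57 and -0.49.

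**Figure D3:**
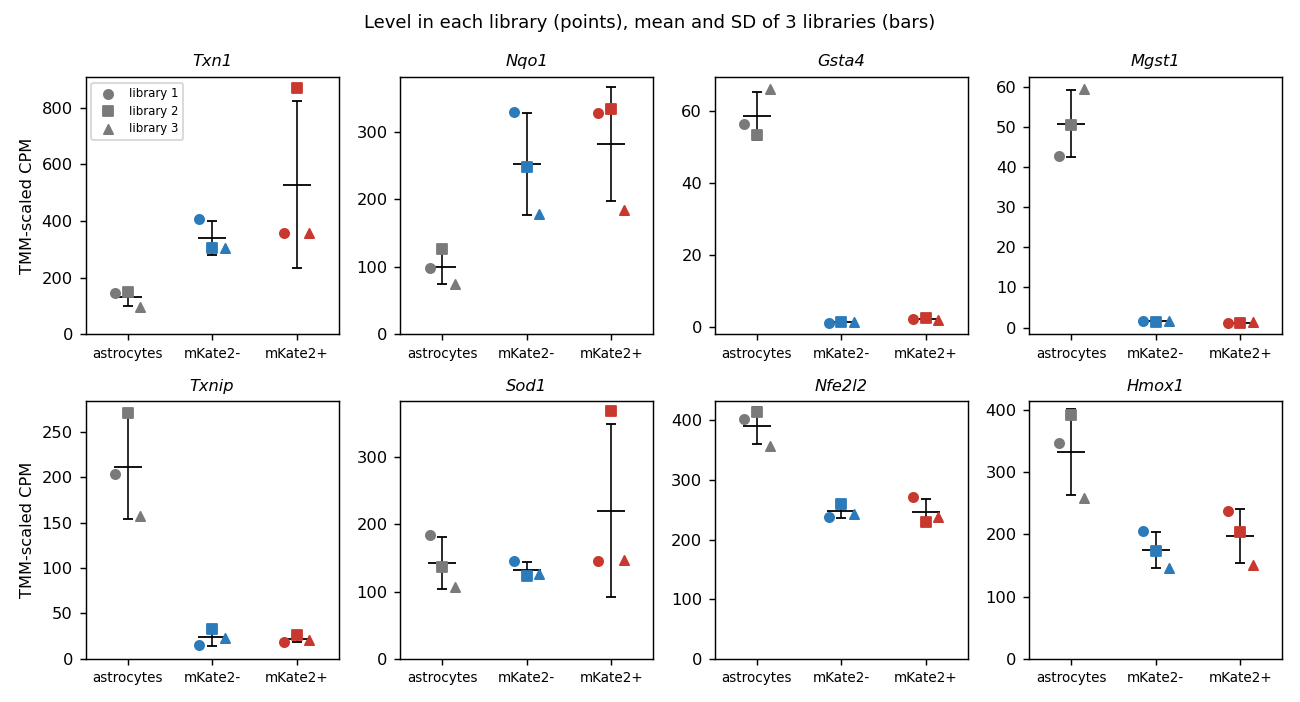
Level of 8 of the genes in each library (points, TMM-scaled CPM), with the mean and SD of 3 libraries as bars. Txn1 and Nqo1 are higher and Gsta4, Mgst1, Txnip, Nfe2l2 and Hmox1 lower in every tumor library than in every astrocyte library, and mKate2+ library 2 stands alone for Txn1 (869 CPM) and Sod1 (369 CPM).

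The second question was whether tumor cells that had acquired astrocyte mitochondria differed in these genes from tumor cells in co-culture that had not. No gene among the 38 tested passed an adjusted p of 0.05 in mKate2+ against mKate2- cells (edgeR, lowest adjusted p = 0.923), as was so for 0% of the 11854 genes tested, and DESeq2 called 0 genes as well. With an unadjusted p below 0.05 there were 3 of 38 genes, Gsta4, Txn2 and Sod2, against 2.03% of all genes. By the study's criteria (over 1.5-fold, unadjusted p below 0.05 and count above 50), 1 of the 38, Gsta4, was higher and 0 lower, against 0.194% and 0.169% of all genes. The study gave them for higher genes. Here the count was taken as the mean normalized count, with the p of edgeR. Gsta4 did not meet them with a trend over gene length removed, without mKate2- library 1 and without mKate2+ library 2. The median log2 fold change of the 38 genes was 0.15, with 30 above 0, against 0.00 and 50.9% for all genes. With the length trend removed it was 0.08, with 28 above 0, and with the replicate block as well 0.08, with 27 above 0. Without mKate2+ library 2 it was 0.03, with 23 of 38 above 0 and 0 with an unadjusted p below 0.05, against 1.88% of all genes. Without mKate2+ library 1 or 3, which leaves library 2 as 1 of a pair, the median was 0.21 and 0.22, and 8 and 6 of the 38 had an unadjusted p below 0.05, against 7.43% and 4.97% of all genes. With an mKate2- library left out, the median was 0.14 to 0.20 and the number 0 to 2, against 1.01 to 1.27% of all genes. The 0 was without mKate2- library 1.

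Gsta4 stood at 1.16, 1.33 and 1.45 CPM in mKate2- and at 2.14, 2.49 and 1.81 CPM in mKate2+ cells, on 32 to 90 counts a library. The groups did not overlap, and the log2 fold change was 0.69 ± 0.24 (edgeR, unadjusted p = 0.0203, adjusted p = 0.923) and 0.56 without mKate2+ library 2. Both levels were below 4% of the astrocyte mean of 58.6 CPM. Of the 15 astrocyte markers, 11 had a lower mean in mKate2+ than in mKate2- cells, such as Slc1a3 (1.46 CPM in mKate2- and 0.856 CPM in mKate2+ cells), 3 a higher one (Aldh1l1, Aqp4 and Gja1), and Gjb6 was at 0 in both. The part of astrocyte RNA in the level of Gsta4 was not tested. Mgst1, which is as low in tumor cells as Gsta4, had no overlap in the other direction, with 1.63, 1.47 and 1.65 CPM against 1.20, 1.22 and 1.27 CPM, and a log2 fold change of -0.38 ± 0.23 (edgeR, adjusted p = 0.923).

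The other genes with an unadjusted p below 0.05 were the mitochondrial Txn2 and Sod2. Txn2 had a log2 fold change of 0.25 ± 0.10, or 0.14 without mKate2+ library 2, and all 3 mKate2+ libraries lay above all mKate2- libraries. Sod2 had a log2 fold change of 0.31 ± 0.13, or 0.15 without that library, and its groups met, with 77.3 CPM in the lowest mKate2+ and 77.4 CPM in the highest mKate2- library. Of the other mitochondrial enzymes of the set, Prdx3 and Txnrd2 had values of 0.07 ± 0.10 and -0.09 ± 0.10, and Prdx5 one of 0.38 ± 0.24, or -0.01 without that library. This grouping by the mitochondrion was made after the values were seen.

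The highest single values in mKate2+ cells came from library 2. Txn1 had a log2 fold change of 0.63 ± 0.34 with it and 0.05 without it, Sod1 0.73 ± 0.34 and 0.12, and Mgst3 0.48 ± 0.27 and 0.05. For 24 of the 38 genes this library was the highest of the 6 tumor libraries, against 32% of the 11854 genes, and for 4 the lowest, against 33.3%. The 38 genes are short, with a median exonic length of 2787 bases against 4457 for all genes tested, and those at their highest in this library had a median of 2064.5 bases. The groups did not overlap for 7 of the 38 genes with mKate2+ higher and for 1 with mKate2+ lower, against 5.47% and 3.86% of all genes. Nfe2l2 and Keap1 had log2 fold changes of -0.02 ± 0.09 and 0.03 ± 0.10, and Nqo1 0.15 ± 0.28. For Mgst3, Prdx6 and Sod2, which passed against astrocytes in 1 tumor population and not the other, the difference between the tumor populations had an adjusted p of 0.923 each (edgeR).

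**Figure D4:**
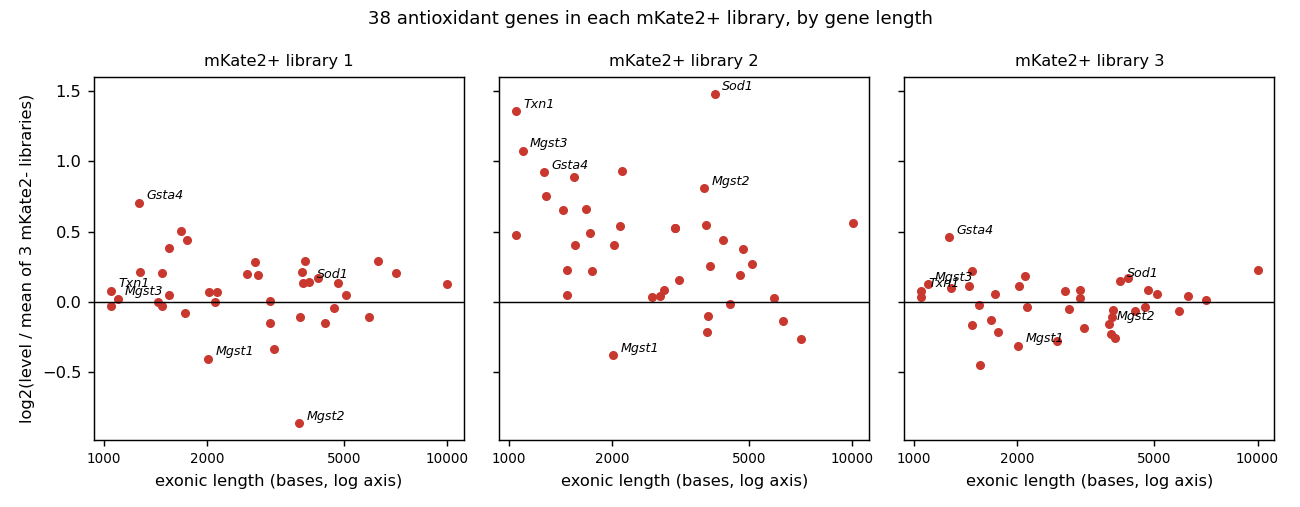
Log2 of the level in each mKate2+ library over the mean of the 3 mKate2- libraries for the 38 genes tested in tumor cells, against exonic length on a log axis. In libraries 1 and 3 the points lie around 0 at all lengths, whereas in library 2 most short genes lie above it. In library 2 the short Txn1 and Mgst3 (1051 and 1097 bases) and the longer Sod1 (3970 bases) lie above 1. Gsta4 is above 0 in each panel.

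Around the 43 genes, 117 further genes of the same pathways were read from 7 lists that hold none of the 43. In mKate2- cells against astrocytes 15 of the 99 tested were higher and 25 lower past 2-fold, and in mKate2+ cells 16 and 23. The higher genes are 15.2 and 16.2% of the 99, against 11.5% and 12.2% of all genes tested, and the lower ones 25.3 and 23.2%, against 22.4% and 22.8%. In each comparison 8 of the lower genes passed the filter only through the astrocytes, among them Nfe2l3, Gstm4, Gstm6, Msrb2, Me3 and Selenop of those named here. Of the 91 that also passed it in tumor cells, 18.7 and 16.5% were lower, against 13.2% and 13.5% of all such genes. The group for cystine uptake, glutathione supply, breakdown and export had 6 higher (35.3%, against 11.5% and 12.2% of all genes) and 3 lower (17.6%, against 22.4% and 22.8%) of 17 tested in each comparison. Slc7a11, the cystine importer xCT, stood at 103, 124 and 45.2 CPM in astrocytes, at 416, 316 and 200 CPM in mKate2- and at 478, 271 and 212 CPM in mKate2+ cells. It was higher by 1.78 ± 0.40 (adjusted p = 0.00525) and 1.82 ± 0.43 (adjusted p = 0.00755), and, like the other risers given here (Chac1, Ptges and Mthfd2), it was named after its values were seen. Chac1, which degrades glutathione, was higher by 2.23 ± 0.33 and 2.42 ± 0.36. Cbs, which commits homocysteine to cysteine synthesis, was lower at -4.30 ± 0.90 (adjusted p = 0.00410), or -2.58 without astrocyte library 3, and Oplah, which frees glutamate from oxoproline, at -3.20 ± 0.21 on the log2 scale.

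Enzymes that supply NADPH, the reductant of both systems, went both ways. Mthfd2, of the mitochondrial folate route, was higher by 2.22 ± 0.17 and 2.37 ± 0.18, and Aldh1l1, a folate dehydrogenase and astrocyte marker, lower at -4.26 ± 0.20 and -4.23 ± 0.28 (log2 fold changes). Of the 2 mitochondrial malic enzymes, Me2, with a mean of 47.4 CPM in astrocytes, was higher by 1.56 ± 0.13 and 1.71 ± 0.16, and was named after its values were seen. Me3, with a mean of 3.95 CPM in astrocytes, was lower at -3.50 ± 0.65 and -3.57 ± 0.67, or at -2.58 and -2.66 without astrocyte library 3. Among the other NRF2-linked genes 3 were higher and 5 lower of 22 in each comparison (13.6 and 22.7%), shares near those of all genes (11.5% and 12.2% higher, 22.4% and 22.8% lower), with Cbr1 at -3.83 ± 0.37 and -3.98 ± 0.22 and Aox1 at -3.28 ± 0.13 and -3.61 ± 0.14. Among the transferases and their relatives outside the 43, Gstm4 (-4.04 and -3.75) and Gstm6 (-4.49 and -5.88) were lower. Gstm6 stood at 0.0362, 0.0554 and 0.297 CPM in mKate2- libraries. With a library left out its values ran from -5.87 to -4.09 in mKate2- and from -6.52 to -5.62 in mKate2+ cells. Ptges, which makes prostaglandin with glutathione as cofactor, was higher by 2.43 ± 0.15 and 2.499 ± 0.15.

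Of 12 partners, repressors and relatives of NRF2, 2 were lower (16.7%, against 22.4% and 22.8% of all genes) and 0 higher (against 11.5% and 12.2%) in each comparison: Nfe2l3, a related factor (-2.63 and -3.07), and Bach2, a relative of the NRF2 competitor BACH1 (-1.48 and -1.81). Arrdc4, a relative of Txnip, was lower with it, at -2.41 ± 0.19 and -2.43 ± 0.27, and the methionine sulfoxide reductase Msrb2 at -3.44 and -3.29. In the superoxide and metal group, Selenop, the secreted selenium carrier, was lower at -6.06 ± 0.82 and -6.42 ± 0.79, or -5.04 and -5.41 without astrocyte library 3, and Mt3, a brain metallothionein, at -5.45 ± 0.31 and -4.48 ± 0.62, the latter -5.51 without mKate2+ library 2. In mKate2+ against mKate2- cells 0 of 91 passed an adjusted p of 0.05 with edgeR, and 3 had an unadjusted p below 0.05, Ggct, Aox1 and Mt1, against 2.03% of all genes. The metallothionein Mt1 had a log2 fold change of 1.05, or 0.19 without mKate2+ library 2.

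Most astrocyte markers were also low in tumor cells. Of the 15 markers, 13 were above 1 CPM in astrocytes, 7 in mKate2- and 6 in mKate2+ cells. Their sums were 329, 409 and 376 CPM in mKate2- and 361, 429 and 385 CPM in mKate2+ libraries, of which Gja1, at 135 and 147% of its astrocyte mean, made up most. The 14 markers present in astrocytes stood at 0.638 to 135% of their astrocyte mean in mKate2- cells, with a median of 1.35%, and at 0.41 to 147% in mKate2+ cells, with a median of 1.2%. Among them were Slc1a3 at 0.764 and 0.449%, Apoe at 1.08 and 0.979%, Aldh1l1 at 5.20 and 5.33% and Sox9 at 53.1 and 52.0%. The genes of the set with the lowest shares were Gpx3 at 0.650 and 0.612%, Gpx7 at 0.886 and 1.06%, Fam213a at 1.18 and 1.55% and Gstt1 at 1.68 and 2.04%. These had passed the filter on low counts only through the astrocytes, so that their low shares were set in advance. Gsta4 stood at 2.24 and 3.66% and Gstm1 at 17.9 and 19.2%. The range of the markers is wide and also holds genes that did not pass the test, such as Prdx1 at 101 and 116%. Whether astrocyte RNA in the sorted tumor cells adds to the lowest of these values was not tested.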

How the data were processed

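Bulk RNA-seq of 9 sorted libraries was analysed as the authors' deposited counts of reads per gene, which carry no normalization. Per the labels and methods, reads were trimmed with Trimmomatic 0.36, mapped to GRCm38 with STAR 2.5.2b and counted with featureCounts (Subread 1.5.2); the annotation release and strand setting are not given in the sources used here. The sort gates in the deposited design text give CellTrace Violet to tumor cells and write them as GFP-negative, whereas the same text and the methods stain the astrocytes and use GFP-expressing tumor cells; here each library keeps the identity in its name. Symbols, positions and exonic lengths (the union of all exons of a gene) came from GENCODE M21, which names 49056 of 49315 IDs.

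Each comparison used its 6 libraries, TMM, genes above 1 CPM in at least 2 libraries, and the quasi-likelihood test of edgeR 4.0.16 (R 4.3.3; limma 3.58.1) with Benjamini-Hochberg adjustment over all genes tested. Calls against astrocytes needed an adjusted p below 0.05 and a log2 fold change above 1 in size. SE is the log2 fold change over the root of F. Alternatives were DESeq2 1.42.0, upper-quartile scaling, no filter, all 9 libraries, replicate number as a block, removal of a length trend, and each library left out. Scripts were tested on simulated data. For mKate2- cells against astrocytes, the edgeR test recovered 47 of 97 simulated 2-fold changes, or 41 of 97 with a length trend added. For mKate2+ against mKate2- cells it recovered 80 of 99, or 78 of 99 with the trend. A gene that did not pass is therefore not shown to be unchanged.

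The 43 genes, the lists and the tests were chosen with earlier results of these data known. Values per library are given for Nfe2l2 and Keap1, the 3 genes of each role with the largest mean change against astrocytes (all genes in roles of 5 or fewer), genes with an unadjusted p below 0.05 between tumor populations, and the 5 highest per exonic length; fold changes are given for 2 genes of each further list called in both comparisons. Srxn1, and the genes said to be named after their values were seen, stand outside these rules. Replicates are separate co-cultures. At 24454561 counts or more per library, 1 count is worth at most 0.0409 CPM, and count-based limits cover counting error only. Reads, protein sequences and the mKate2 transgene were not analysed here.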

Additional observations from a re-analysis of the deposited data

How the results depend on the processing

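The counts of genes called against astrocytes stayed within 1.5 times their value under every alternative run, except the 2 of the 43 genes called higher in mKate2- cells. These became 4 with no filter on low counts, 4 with the replicate block and the length trend removed together, and 2 to 5 with a library left out, the 5 without astrocyte replicate 1. Gsto1, Prdx4, Txn2, Txnrd2, Hmox1, Gpx4, Gpx8, Gstm5, Mgst3 and Sod3 lie near the 2-fold line or the adjusted p. Each crossed it under 1 or more alternatives. With a library left out, Gpx1, Mgst3, Prdx6, Srxn1, Hmox1 and Cat lost an adjusted p below 0.05 in at least 1 fit against astrocytes, and Gclm, Prdx5, Prdx6, Sod2 and Sod3 gained one. Upper-quartile scaling moved the median log2 fold change of all genes to -0.12 in both comparisons. In mKate2+ against mKate2- cells, members of the set meeting the study's criteria were 3 with no filter, 0 with the length trend removed, 0 with the replicate block and the length trend removed, and 0 to 4 with a library left out. Of all genes, 23 were higher and 20 lower by these criteria; 62 were higher with DESeq2, 224 higher and 35 lower with no filter, 53 higher with all 9 libraries in the fit, 13 higher and 33 lower with the replicate block, 14 higher with the length trend removed, and 8 higher with the block and the length trend removed. With a library left out, 5 to 310 were higher and 16 to 70 lower, 5 without mKate2+ replicate 2 and 310 without mKate2+ replicate 1.

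Values near 0 changed sign. In mKate2- cells against astrocytes, Prdx1 became -0.0707 with upper-quartile scaling and ran from -0.12 to 0.076 with a library left out, Gclc from -0.51 to 0.16 and Sod1 from -0.27 to 0.11. In mKate2+ cells against astrocytes, Txnrd1 became -0.0061 with upper-quartile scaling and ran from -0.023 to 0.22 with a library left out, Gclc ran from -0.54 to 0.12, and Keap1 became 0.0013 with no filter. Between the tumor populations, with a library left out, Nfe2l2 ran from -0.093 to 0.017, Keap1 from -0.065 to 0.071 and Nqo1 from -0.055 to 0.40. The causes were not tested.

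The populations were sorted from 3 co-cultures, but whether equal numbers mark the same co-culture is not given in the sources used here. The main test therefore did not pair the samples. Deviations of same-numbered libraries from their group means had correlations of -0.242 to 0.385, of which 5 of 9 were at or below 0.1. The highest was that of the mKate2+ and mKate2- libraries numbered 3. With 3 libraries a group, such correlations cannot decide whether the samples are paired. With the replicate block, 2 genes of the set were higher and 14 lower in mKate2- cells, 5 higher and 14 lower in mKate2+ cells against astrocytes, and 1 met the study's criteria between the tumor populations. Where a library was left out, its group kept 2 libraries. Depth limits chiefly Gpx3, Gpx7, Gstt1 and Gstk1 in tumor cells, at 1 to 16 counts a library.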

Other observations

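In all 3 populations the library numbered 3 was the lowest of its group for 7 of the 38 genes tested in tumor cells, Cat, Gstm1, Gstm5, Gstp1, Hmox1, Nqo1 and Prdx5, which is 18.4% against 5.84% of the 11854 genes tested. Nqo1 stood at 74.8, 178 and 184 CPM in these libraries of astrocytes, mKate2- and mKate2+ cells, against 98.7 to 126, 248 to 329 and 328 to 333 CPM in the others. Slc7a11, outside the 43 genes, had the same order, with 45.2, 200 and 212 CPM in the libraries numbered 3. This was seen in the data and carries no test, and whether equal numbers mark the same co-culture is not given in the sources used here.

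Ephx1, microsomal epoxide hydrolase, one of the further pathway genes, was lower in tumor cells and was named after its values were seen. It stood at 763, 696 and 642 CPM in astrocytes, at 56.5, 75.4 and 69.3 CPM in mKate2- and at 67.5, 91.3 and 56.7 CPM in mKate2+ cells, with log2 fold changes of -3.38 ± 0.15 (edgeR, adjusted p = 5.93e-06) and -3.29 ± 0.20 (edgeR, adjusted p = 1.86e-05).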
